A study of Homo sapiens with 12 samples.

Results

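JEKO1 is a cell line established from a mantle cell lymphoma (MCL), a cancer of mature B cells. The RNA of JEKO1 was compared with that of 2 other MCL lines, JVM2 and MAVER1. The comparison used 4 JEKO1 libraries of the 12 in the series, with 4 from JVM2 and 4 from MAVER1, and matched them by treatment label. For each line there was 1 library of untreated cells (Ctrl), 1 with ironomycin (Irono), 1 with ibrutinib (Ibru) and 1 with both drugs (Irono+Ibru), all at 48 h. Ironomycin, a salinomycin derivative that traps iron in lysosomes, was given at 50 nM to JEKO1 and at 250 nM to JVM2 and MAVER1. Ibrutinib, an inhibitor of the B-cell receptor kinase BTK, was given at 0.5 μM to JEKO1, 1.5 μM to JVM2 and 6.25 μM to MAVER1. JEKO1 and MAVER1 grew in medium with 20% fetal calf serum and JVM2 in 10%. Each line stands for 1 donor, and doses and serum were set by line, so that differences of the line and of its culture cannot be told apart, and the drug doses add to this for the treated libraries.

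MCL cells carry a translocation that places CCND1, the gene of cyclin D1, under an immunoglobulin enhancer, and they depend on B-cell receptor and NF-κB signals. B cells also present antigen: MHC class I molecules carry peptides that TAP1 and TAP2 pump into the endoplasmic reticulum, and MHC class II molecules carry peptides from taken-up protein. Interferon raises class I genes together with a set of antiviral genes, the interferon-stimulated genes, many of which carry a DNA element of the form GAAANNGAAA (N is any base) near their start.

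All 12 libraries held between 35448523 and 38630809 counted reads, and none was identical to another. The scaling factors of the trimmed mean of M-values (TMM) lay between 1.03 and 1.20 in JEKO1, highest in Irono+Ibru, and between 0.92 and 1.004 in the other lines. B-cell markers were read in every library. In JEKO1, MS4A1 (CD20) had 247 to 361 CPM (counts scaled to a common library size), CD79A had 236 to 453 CPM and PAX5 had 305 to 478 CPM. CCND1 had 2169 to 3545 CPM in JEKO1, 217 to 320.0 CPM in JVM2 and 4299 to 4787 CPM in MAVER1. SOX11, a transcription factor typical of MCL, had 109.7 to 179.8 CPM in JEKO1 and 55.96 to 179.9 CPM in MAVER1, and no read in JVM2. CD5, a T-cell marker that MCL cells also carry, had 3.25 to 17.2 CPM in JEKO1 and at most 0.0547 CPM in JVM2. In MAVER1 it had 16.4 to 45.5 CPM, more than in JEKO1 under each treatment. Both markers were thus read in JEKO1 and MAVER1 and near 0 in JVM2.

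A gene was called higher or lower in JEKO1 when edgeR's quasi-likelihood test gave a Benjamini-Hochberg adjusted p below 0.05 and a change of at least 1 on the log2 scale (log2 fold change) against both lines, and when the ratio to each line was also at least 1 on the log2 scale under each of the 4 treatments. By this rule, 1389 of 18084 genes tested were higher in JEKO1 (7.68%) and 905 were lower (5.00%). Single comparisons called more genes. Against the mean of JVM2 and MAVER1, 3625 genes were higher (20.0%) and 2863 lower (15.8%). Against JVM2 alone the counts were 4234 (23.4%) and 4057 (22.4%), and against MAVER1 alone 3354 (18.5%) and 2738 (15.1%). Of these genes, 801 differed from both lines but in opposite directions. The same rule applied to JVM2 gave 1987 higher (11.0%) and 1552 lower (8.58%) genes, and applied to MAVER1 it gave 658 (3.64%) and 713 (3.94%), so JEKO1 lay between them. The filter on low counts bears on these numbers: 759 of the 1389 higher genes (54.6%) would not have been kept on the 8 other libraries alone, so that only a high level in JEKO1 brought them into the test. Likewise 311 of the 905 lower genes (34.4%) would not have been kept on the 4 JEKO1 libraries alone. No treatment was repeated within a line. The p-values rest on the spread left after line and treatment were fitted, which includes any difference between lines in their drug response. The p-values describe these cultures and not MCL lines in general. For genes called by the rule they are part of the selection and no further support.

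**Figure D1:**
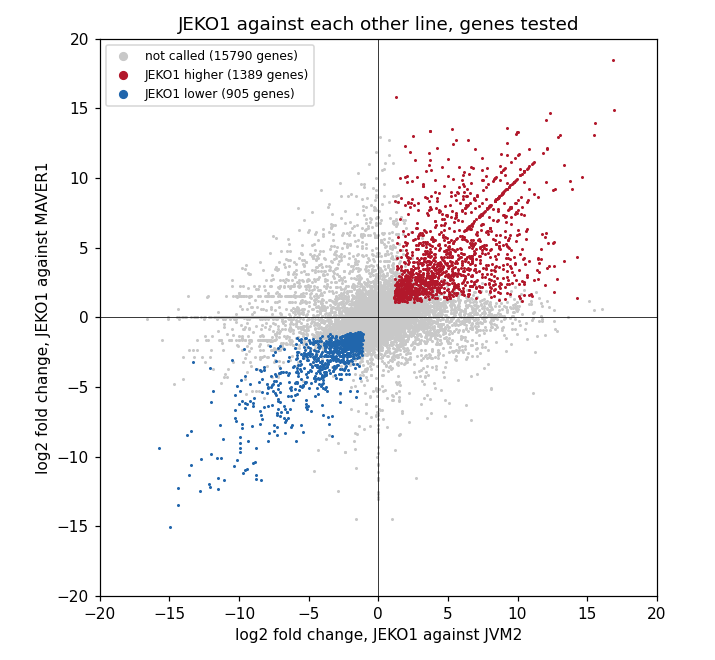
Each point is 1 of the 18084 genes tested, with the log2 fold change of JEKO1 against JVM2 on the horizontal axis and against MAVER1 on the vertical axis. Red points are the 1389 genes called higher in JEKO1, blue points the 905 called lower, and grey points all others, including genes that differed from only 1 line.

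In the Ctrl libraries alone, with 1 library a line and no test, 1875 genes were at least 1 log2 unit higher in JEKO1 than in both other lines and 1515 were lower. Ironomycin left 1552 of the higher and 1078 of the lower genes past that size, ibrutinib 1666 and 1241, and both drugs 1564 and 1022. Under every treatment the gap held for 1389 higher genes (74.1%) and 905 lower genes (59.7%). These are the genes called by the rule. A gene higher in JEKO1 was often a gene that was read at a low level: 494 of the 1389 had at least 5 CPM in all 4 JEKO1 libraries. Of the 905 lower genes, 537 had at least 5 CPM in all 8 libraries of JVM2 and MAVER1. A lower level in bulk RNA can come from fewer cells that express a gene or from less RNA per cell, which cannot be told apart here.

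The genes highest in JEKO1 relative to the nearer line comprised immunoglobulin genes, genes whose expression is normally limited to testis or the fetus, and PDPN (podoplanin, a membrane glycoprotein of lymphatic endothelium). IGF2BP1, an RNA-binding protein of fetal tissue, had 167.3 CPM in JEKO1 Ctrl, 143.1 in Irono, 154.2 in Ibru and 135.6 in Irono+Ibru, with 2 reads in all in the 8 other libraries. CTCFL, the testis paralog of the chromatin insulator CTCF, had 337 CPM in Ctrl, 235 in Irono, 329.9 in Ibru and 185 in Irono+Ibru, and at most 0.081 CPM in JVM2 and 0.576 CPM in MAVER1. The 4 JEKO1 libraries of both genes lay far above all 8 others, and those with ironomycin were the lower ones. DPEP3, a dipeptidase of testis, had 259 to 330.0 CPM in JEKO1 against at most 0.167 CPM elsewhere. PRSS21 (testisin, a serine protease) had 146 to 169 CPM with 1 read in the other lines. MAGEB2 had 63.5 to 109.7 CPM with 2 reads in the other lines. PDPN ranged more widely, from 16.7 CPM in Ibru to 55.8 CPM in Irono, with 2 reads elsewhere. DLEU7 had 36.8 to 56.8 CPM and at most 0.0555 CPM in the other lines, and it was the first of 5 neighboring genes called higher, a run that ended with RNASEH2B and GUCY1B2.

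At the other end stood genes that were read in JVM2 and MAVER1 and were absent or far lower in JEKO1. UNC13C, a synaptic vesicle priming protein, had 0 reads in all 4 JEKO1 libraries and 31.4 to 79.0 CPM in the other 8. With a floor of 3 reads over the 4 JEKO1 libraries together (0.0184 CPM), UNC13C was at least 1710-fold lower in JEKO1 than in the lowest library of the other lines. GSTM1, a glutathione S-transferase, was at least 737-fold lower on the same scale (0 reads against 13.6 to 25.0 CPM). LINC01278 was at least 632-fold lower, ECHDC2 (an enoyl-CoA hydratase domain protein) at least 631-fold, DEPDC1 at least 487-fold, MTX3 (a metaxin of the mitochondrial outer membrane) at least 428-fold and ZYG11A at least 312-fold. All had no read in JEKO1. FAM83H, ZNF512B and MYEF2 had at most 0.376, 0.329 and 0.0761 CPM in JEKO1, against 14.6 to 25.9, 44.0 to 121 and 15.3 to 49.8 CPM in the other libraries. SKAP1, an adaptor protein of lymphocyte receptor signaling, had 0.534 to 1.29 CPM against 53.3 to 75.2 CPM.

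**Figure D2:**
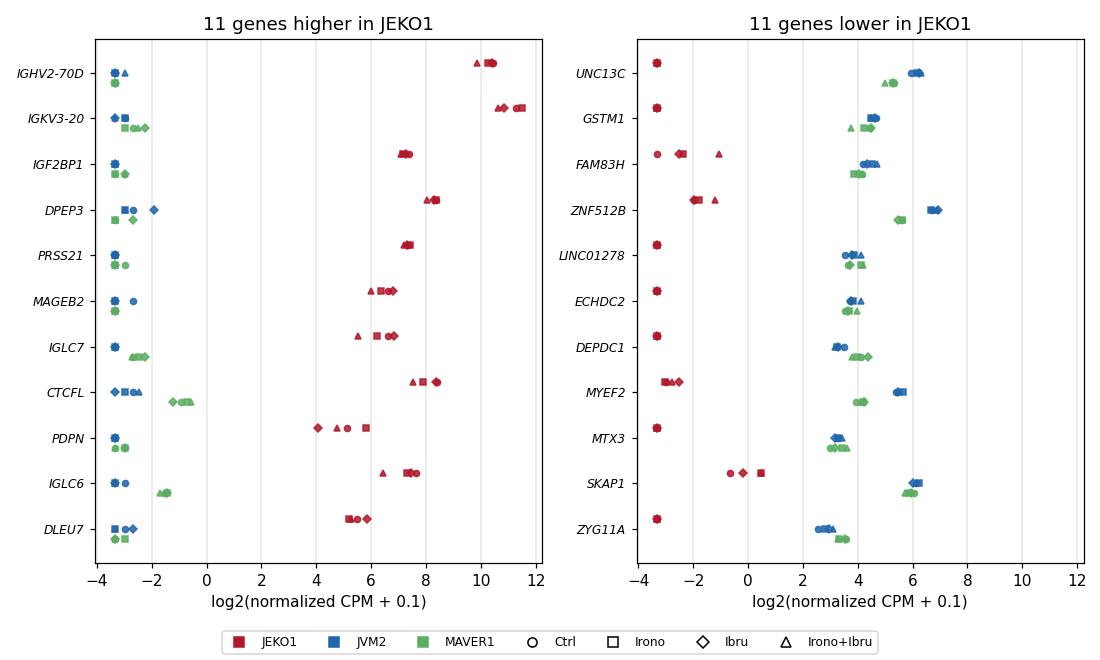
Normalized expression, as log2 of CPM plus 0.1, of 11 genes called higher (left) and 11 called lower (right) in JEKO1, from the 12 in each direction with the largest Ctrl ratio to the nearer line. Color marks the line and shape the treatment, 1 point a library; the 4 JEKO1 points of each gene lie apart from the 8 others.

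In total, 22 genes were read at 5 CPM or more in every JEKO1 library with at most 3 reads summed over the 8 other libraries, and 11 genes were the reverse, with at most 3 reads over the 4 JEKO1 libraries. Among the 22 were 11 protein-coding genes. They included NUDT11 (at least 2280-fold higher, taking a floor of 3 reads over the 8 libraries), PROX1, a homeobox factor of lymphatic endothelium (at least 1070-fold), and POU4F1, a neural transcription factor (9.48 to 12.6 CPM, 3 reads elsewhere). The 11 genes absent from JEKO1 further included FZD6, a Wnt receptor, and DST (dystonin), each with 3 reads, and HOOK1 (at least 287-fold lower). These genes outside the lists were picked by their read counts.

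Immunoglobulin genes differed between JEKO1 and the other lines. Of 380 immunoglobulin genes in the table, 72 were tested, and 38 of these were higher in JEKO1 and 2 lower. Of the 38, 30 entered the test only through JEKO1, so their share is not set against the 7.68% of all genes, and the values below are a description. IGHV2-70D had 935 to 1398 CPM in JEKO1 and 1 read in the other lines. IGKV3-20 had 2496, 2874, 1829 and 1576 CPM in Ctrl, Irono, Ibru and Irono+Ibru, against at most 0.109 CPM. Both are variable segments, which each B-cell clone chooses once. Neighboring κ variable segments were also called higher in JEKO1, in unbroken runs of 10 and of 7 tested genes. Whether the higher segments reflect the choice of a clone was not tested. The κ constant gene IGKC held only 2 reads over the 4 JEKO1 libraries and none elsewhere, and was too low to be tested. The λ constant genes IGLC6 (87.0 to 199.9 CPM) and IGLC7 (46.0 to 115 CPM) were higher in JEKO1, while IGLC2 was lower, with 76.8 to 126 CPM against 1093 to 3027 CPM. The heavy-chain constant gene IGHG3 had 317 to 565 CPM in JEKO1, at most 0.312 CPM in JVM2 and 45.3 to 60.7 CPM in MAVER1, whereas IGHM was read at 2965 CPM or more in all 3 lines (3765 to 5019 in JEKO1). Segments of these families are close copies, so reads may have been split between them; the low levels of IGKV3D-20 (9.15 to 19.5 CPM) and IGHV2-5 (8.61 to 13.95 CPM) in JEKO1 are uncertain for that reason.

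Genes of MHC class I presentation were lower in JEKO1. All 22 members were tested, and 8 were called lower (36.4%, against 5.00% of all genes) and none higher. Of the 22, 18 were below both lines under every treatment, against 3861 of the 18084 genes tested. The median log2 fold change was -1.80 against JVM2 and -1.10 against MAVER1, where all genes tested had 0.03 and 0.02. The 8 became 5 when reads were scaled by library total alone. TAP1, a subunit of the peptide transporter, had 53.3, 56.6, 50.3 and 58.7 CPM in JEKO1 Ctrl, Irono, Ibru and Irono+Ibru, 362 to 414 CPM in JVM2 and 229.5 to 376 CPM in MAVER1. Its log2 fold change was -2.80 ± 0.15 (SE) against JVM2 and -2.41 ± 0.15 against MAVER1 (edgeR adjusted p = 1.78e-08 and 1.06e-07). The JEKO1 levels did not overlap with those of either line, where the rule itself asked for a gap under each treatment. The drugs left the JEKO1 levels in a narrow range. TAP2, the partner subunit, had 6.77 to 8.49 CPM against 31.2 to 40.9 CPM. TAPBP (tapasin, which loads peptide) and TAPBPL were lower too, as were HLA-E and HLA-F, the immunoproteasome subunit PSMB9 and the proteasome activator PSME2. HLA-E had 126 to 147 CPM in JEKO1, 1052 to 1274 CPM in JVM2 and 331 to 376 CPM in MAVER1. The classical heavy chains did not reach the size required under every treatment. HLA-B had 859 to 1017 CPM and HLA-C 520.5 to 613 CPM in JEKO1; their fold changes were -1.94 and -1.54 on the log2 scale against JVM2 and -1.12 and -0.81 against MAVER1. B2M, the light chain, had 354 to 462 CPM, with -2.13 and -0.86. NLRC5, the class I transactivator, had 142 to 213 CPM in JEKO1, within 119 to 231 CPM of the other lines.

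Of 22 genes of MHC class II presentation, 5 were called lower (22.7%, against 5.00% of all genes) and none higher. HLA-DQB1 had 23.9, 28.9, 17.6 and 23.1 CPM in JEKO1 against 159 to 211 CPM in JVM2 and 415 to 504 CPM in MAVER1. HLA-DQA1 had 44.7 to 65.7 CPM against 405 to 541 CPM. HLA-DRB1 (274 to 358 CPM) and HLA-DPA1 (269.8 to 289 CPM) were lower by less, and the lysosomal protease CTSH was lower as well. The class II genes HLA-DRA (-0.72 and -0.63 on the log2 scale) and CD74, the invariant chain (-1.18 and -0.73), were not called. CIITA, which switches class II genes on, had 151 to 175 CPM in JEKO1, 105 to 166 CPM in JVM2 and 302 to 442 CPM in MAVER1, so that it was no lower than in JVM2. HLA genes are polymorphic and have near-identical copies, and their counts are uncertain where reads could be split.

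Among 47 interferon-stimulated genes, all tested, 15 were called lower in JEKO1 (31.9%, against 5.00% of all genes) and none higher. The 47 had a median log2 fold change of -3.04 against JVM2 and -1.05 against MAVER1. Of the 47, 28 were below both lines under every treatment, against 3861 of the 18084 genes tested. GBP4, an interferon-inducible GTPase, had 0 to 0.102 CPM in JEKO1, 46.0 to 97.6 CPM in JVM2 and 3.79 to 14.7 CPM in MAVER1. SAMD9L, an antiviral factor, had 0.839 CPM in Ctrl, 2.15 in Irono, 0.609 in Ibru and 2.19 in Irono+Ibru, against 87.5 to 126 CPM in JVM2 and 26.6 to 69.95 CPM in MAVER1. IFIT3, which binds viral RNA, had 0.686, 3.18, 0.406 and 2.26 CPM in JEKO1, against 11.4 to 34.5 CPM. In both SAMD9L and IFIT3 the JEKO1 libraries with ironomycin were the higher pair but remained below every library of the other lines. IFIT2, IFIT5, IFI35, IFI44, OAS2, USP18, IFIH1, HERC5, HERC6, SAMD9, LGALS3BP and GBP1 completed the 15. Without the 6 ironomycin libraries, 26 of the interferon-stimulated genes were called lower in place of 15. The rule then asked for the gap only in Ctrl and Ibru, which is looser for every gene.

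**Figure D3:**
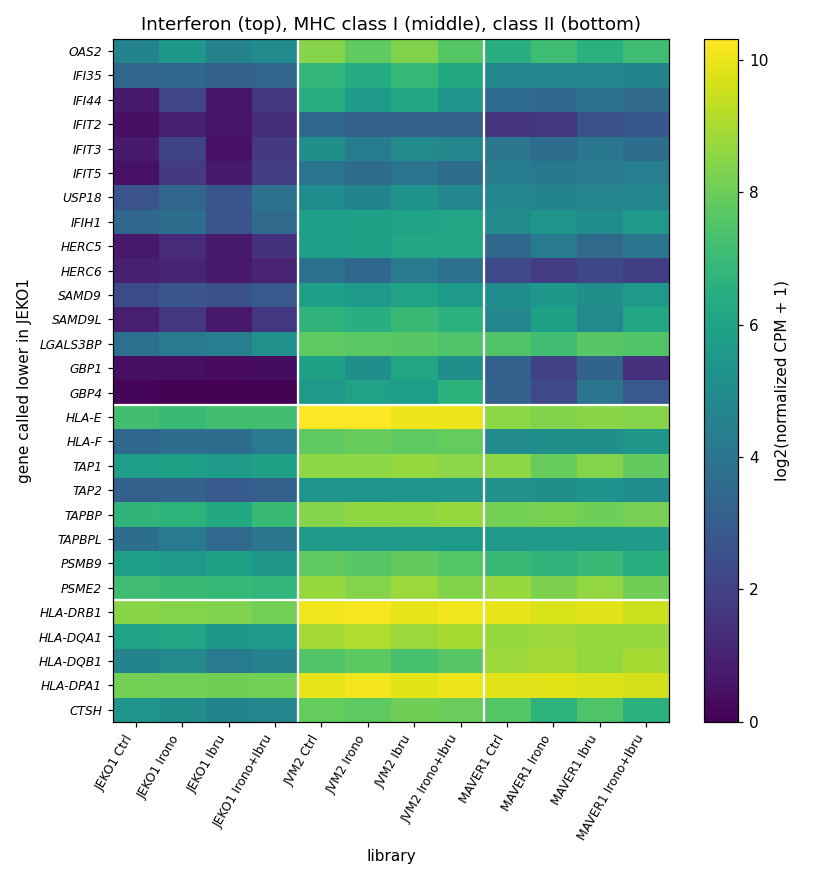
Heat map of log2 of CPM plus 1 for the genes called lower in JEKO1 from the interferon-stimulated (top, 15), MHC class I (middle, 8) and MHC class II (bottom, 5) lists, 1 column a library. The 4 JEKO1 columns on the left are darker (lower) than the JVM2 and MAVER1 columns in each row.

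The interferon-responsive element was looked for in the 250 bases before the start of each gene in the RefSeq promoter table (build GRCh38.p14), as the letters GAAANNGAAA or their reverse complement TTTCNNTTTC, counting overlapping matches. It was present in 8 of the 12 interferon-stimulated genes called lower that the table held (66.7%), and in 20 of the 34 interferon-stimulated genes tested (58.8%), whether called or not. For class I the element was in 5 of 7 genes called lower (71.4%) and in 7 of 18 tested (38.9%). Over all genes it was in 5.05% of the lower, 2.05% of the higher and 2.48% of the tested genes matched, and in 3.07% of all promoters in the table. The counts were made on the build of the table, not on GRCh37, the build named for the files. Promoters of 4 lower genes are shown because they carry this element, with its bases in capitals and all others in lower case, 5′ to 3′ on the strand of the gene. They lie at chr10:89327747-89327996 (IFIT3, + strand), chr10:89414318-89414567 (IFIT5, + strand), chr6:32853705-32853954 (TAP1, - strand) and chr6:33314079-33314328 (TAPBP, - strand).
IFIT3: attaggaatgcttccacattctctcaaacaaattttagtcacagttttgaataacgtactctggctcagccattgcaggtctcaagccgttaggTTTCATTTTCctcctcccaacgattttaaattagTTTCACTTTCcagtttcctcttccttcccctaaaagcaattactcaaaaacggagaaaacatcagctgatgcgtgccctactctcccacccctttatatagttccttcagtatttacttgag
IFIT5: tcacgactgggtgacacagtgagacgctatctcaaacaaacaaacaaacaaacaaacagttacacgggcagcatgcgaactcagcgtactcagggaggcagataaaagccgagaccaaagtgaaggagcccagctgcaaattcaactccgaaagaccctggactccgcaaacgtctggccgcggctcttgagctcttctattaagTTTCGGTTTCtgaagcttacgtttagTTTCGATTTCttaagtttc
TAP1: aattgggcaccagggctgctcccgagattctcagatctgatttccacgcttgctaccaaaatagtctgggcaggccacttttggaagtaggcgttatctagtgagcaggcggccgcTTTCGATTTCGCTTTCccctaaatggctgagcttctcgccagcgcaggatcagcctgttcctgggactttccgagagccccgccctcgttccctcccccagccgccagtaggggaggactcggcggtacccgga
TAPBP: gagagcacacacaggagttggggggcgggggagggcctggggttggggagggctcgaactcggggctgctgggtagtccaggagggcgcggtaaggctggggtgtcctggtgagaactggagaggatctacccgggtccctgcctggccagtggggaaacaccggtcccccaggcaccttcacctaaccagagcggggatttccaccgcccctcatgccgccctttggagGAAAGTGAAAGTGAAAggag

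In TAP1 and TAPBP the 2 matches overlap in a single stretch, whereas in IFIT3 and IFIT5 they are apart. A match is a description of the letters and was not linked to the binding of any factor.

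Lower genes of some families lay next to each other on the chromosome. Families were chosen by symbol after values were seen, and their counts are a description, beside the 5.00% lower of all genes. All 7 APOBEC3 genes tested, cytidine deaminases that act on viral DNA, were called lower, with median log2 fold changes of -4.89 against JVM2 and -3.66 against MAVER1. APOBEC3G had 16.1 to 36.3 CPM in JEKO1 against 178 to 238 CPM, and APOBEC3D had 0.406 to 0.705 CPM against 24.3 to 49.6 CPM. CBX6 and 5 of the APOBEC3 genes formed an unbroken run of 6 tested genes on chromosome 22. All 4 APOL genes (apolipoproteins L) were lower, and APOL3, APOL2 and APOL1 ran on into MYH9. SP110, SP140, SP140L and SP100, nuclear body proteins that interferon induces, formed a run on chromosome 2. SP100 had 7.13 to 9.89 CPM in JEKO1 against 47.1 to 133 CPM. On chromosome 10, the death receptor FAS, the lysosomal lipase LIPA, IFIT2 and IFIT3 were adjacent lower genes. On chromosome 7, CDK6, SAMD9 and SAMD9L stood together. Of 4 GSTM genes, 3 were lower. Other families were mixed. Of 6 SLFN genes, 2 were lower and none higher, and of 6 GIMAP genes, GTPases of lymphocytes, 2 were lower and 1 higher. The only CD1 gene tested was not called. APOBEC3, APOL and GSTM genes are near copies of each other, so single members are less certain than the families.

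Of 44 NF-κB and TNF family genes tested, 7 were lower (15.9%, against 5.00% of all genes) and none was higher. FAS had 0.152 to 0.263 CPM in JEKO1, 95.6 to 129 CPM in JVM2 and 11.4 to 14.3 CPM in MAVER1, a log2 fold change of -8.95 ± 0.15 (SE) and -5.77 ± 0.15 (edgeR adjusted p = 7.23e-12 and 2.49e-10). LTA, the cytokine lymphotoxin α, had 0.0254 to 0.203 CPM against 9.42 to 144 CPM. TNFAIP3 (A20, a brake on NF-κB) had 22.1, 23.8, 5.48 and 24.4 CPM in JEKO1 Ctrl, Irono, Ibru and Irono+Ibru, against 75.4 to 231 CPM; its lowest library was Ibru. TNFRSF1B, TNFRSF14, TNFSF10 and LTB were the other lower members. Without the Ctrl library of JEKO1, JVM2 or MAVER1 the 7 became 11, 13 or 12. The rule then no longer asked for the gap in Ctrl, which is looser for every gene. Of 34 chemokine and homing genes tested, 5 were lower (14.7%) and 2 higher (5.88%, against 7.68% of all genes). ITGB2, the β chain of leukocyte integrins, had 2.56 to 6.43 CPM against 33.8 to 294 CPM. CCR7, ITGB7 and ITGAX were lower too, and CCR9 and CCR1 were higher at levels under 2.3 CPM. Of these 2 higher genes, 1 entered the test only through JEKO1.

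Of 38 B-cell and MCL surface markers, 8 were lower in JEKO1 (21.1%, against 5.00% of all genes) and none was higher. SDC1 (CD138, a plasma cell marker) had 1.06 to 1.57 CPM in JEKO1 against 36.5 to 123 CPM. CD52, the target of alemtuzumab, had 28.7, 12.6, 19.7 and 3.36 CPM in JEKO1, and was also lower with ironomycin in MAVER1 (88.6 CPM in Ctrl, 31.2 in Irono). SLAMF6, CD48, CD69, CD82, CD9 and ITGAX were the other 6. Of 41 B-cell and plasma cell transcription factors, 5 were higher (12.2%, against 7.68% of all genes) and 2 lower (4.88%). IRF8, a factor of germinal center B cells, had 368, 182, 343 and 209 CPM in JEKO1 Ctrl, Irono, Ibru and Irono+Ibru, against 14.5 to 17.6 CPM in JVM2 and 20.95 to 83.5 CPM in MAVER1. BCL11A had 56.3 to 71.7 CPM against at most 0.0278 CPM in JVM2 and 13.9 to 23.8 CPM in MAVER1, and POU2F2 (OCT2) and BHLHE41 were higher as well. PRDM1 (BLIMP1), which drives plasma cell fate, was lower, with 1.52 to 4.57 CPM against 13.4 to 64.9 CPM, as was MEF2C. IRF4 had 94.7 to 272 CPM in JEKO1, 284 to 469.6 CPM in MAVER1 and 1225 to 1426 CPM in JVM2, and was not called.

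Of 42 B-cell receptor signaling genes tested, 2 were lower (4.76%, against 5.00% of all genes) and none was higher (7.68% of all genes). The 2 were RAC2, a GTPase of blood cells (17.6 to 61.1 CPM against 161 to 574 CPM), and RASGRP3, an activator of RAS (4.72 to 12.6 CPM against 30.9 to 119 CPM). BTK had 171 to 213 CPM in JEKO1, 104 to 133 CPM in JVM2 and 189 to 223 CPM in MAVER1, with log2 fold changes of 0.69 ± 0.08 (SE) and -0.05 ± 0.08 (edgeR adjusted p = 8.17e-06 and 0.582). CD79B had 416 to 847 CPM, 2.35 higher on the log2 scale than JVM2 and 0.32 higher than MAVER1. Among inhibitory receptors and phosphatases, PTPN22 was lower and SLA2 higher, each 3.12% of the 32 tested (against 5.00% and 7.68% of all genes). SLA2 entered the test only through JEKO1. PTPN6 (SHP-1), not called, was lower in Irono+Ibru than in Ctrl in each line. It went from 306 to 12.5 CPM in JEKO1, from 740.1 to 388 CPM in JVM2 and from 126.7 to 22.7 CPM in MAVER1. Of 17 drug target and transport genes tested, 1 was higher (5.88%, against 7.68% of all genes) and 3 lower (17.6%, against 5.00%). The higher gene was ERBB4, a kinase with the cysteine that ibrutinib binds (20.4 to 34.6 CPM against at most 0.0559 CPM). It entered the test only through JEKO1. The lower genes were TEC, JAK3 and ABCC4.

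Among D cyclins, CDKs and the RB axis, 3 of 29 were higher (10.3%, against 7.68% of all genes) and 3 lower (10.3%, against 5.00%). Of the 3 higher genes, 1 entered the test only through JEKO1, so the higher share is not read against all genes. CDK6 had no read in any JEKO1 library, 152 to 184 CPM in JVM2 and 1.44 to 3.76 CPM in MAVER1. CDKN2A, which encodes the CDK4/6 inhibitor p16, had 89.4 to 133 CPM in JEKO1, 17.5 to 32.4 CPM in JVM2 and at most 0.0543 CPM in MAVER1, and CDKN2B and BMI1 were higher too. Of 30 p53 targets, FAS, CD82 and RRM2B were lower (10%, against 5.00% of all genes) and none was higher. CDKN1A (p21) had 33.5 to 94.6 CPM in JEKO1, 427 to 625 CPM in JVM2 and 56.3 to 140.0 CPM in MAVER1. In the BCL2 family, 1 of 21 genes tested was lower, a share (4.76%) near that of all genes. This was BCL2L11 (BIM, which triggers apoptosis), with 0.203 to 1.67 CPM in JEKO1, 4.99 to 9.82 CPM in JVM2 and 225 to 343 CPM in MAVER1. BCL2 itself had 76.3 to 141 CPM in JEKO1, close to the 139 to 194 CPM of JVM2 and below the 583 to 1183 CPM of MAVER1.

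Of 63 iron biology genes, 48 were tested, and 1 was higher (2.08%, against 7.68% of all genes) and 4 lower (8.33%, against 5.00%). ACO1 (IRP1, which controls iron-related mRNAs) had 67.5, 53.5, 62.1 and 45.8 CPM in JEKO1 against 15.0 to 21.97 CPM. HMOX1 (heme oxygenase) had 0.507 to 2.59 CPM against 25.5 to 38.1 CPM, STEAP3, an endosomal ferrireductase, had 0.254 to 0.584 CPM against 14.6 to 37.8 CPM, and HMOX2 and HIF1A were lower by 1.17 to 1.55 on the log2 scale. TFRC, the transferrin receptor, was 1.43 lower than JVM2 and 0.57 lower than MAVER1. Its Irono level was 263 CPM against 242 CPM in Ctrl for JEKO1, 888 against 437 CPM in JVM2 and 537 against 289.6 CPM in MAVER1, at unequal doses. Of 35 ferroptosis genes, MBOAT2 was higher (2.86%, against 7.68% of all genes), and AIFM2 (FSP1), DHCR7 and HMOX1 lower (8.57%, against 5.00%). Of 45 genes of cholesterol and lipid uptake, LRP1 and CD36 were higher (4.44%, against 7.68% of all genes), 1 of them entering the test only through JEKO1. Lower were 3 (6.67%, against 5.00%), among them DHCR7 and CYP51A1, enzymes of sterol synthesis. CD36 rested mostly on the Ctrl library, with 6.89 CPM there and 0.455 to 1.27 CPM in the treated ones. In the unfolded protein response, SDF2L1 and DNAJC3 were lower, 5.71% of the 35 tested and near the 5.00% of all genes. XBP1 had 37.2, 102, 42.2 and 124 CPM in JEKO1, 239 to 287 CPM in JVM2 and 446 to 535 CPM in MAVER1.

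Several genes of other tissues were higher in JEKO1. Of 34 cancer-testis antigens in the table, 15 were tested. The median log2 fold change of the 15 was -2.77 against JVM2 and 3.44 against MAVER1. The 5 called higher were MAGEB2, CTCFL, CTAG2 (91.2 to 157 CPM against at most 0.2498 CPM), DDX43 and PRAME, which MAVER1 also had at 47.1 to 90.6 CPM, and none was lower. Of these 5, 3 entered the test only through JEKO1, as did 4 of the 5 T and NK cell markers called higher, so neither share is read against all genes. Of 23 T and NK markers, 14 were tested, and PRF1 was lower. CD247, the ζ chain of the T-cell receptor, had 45.9 to 65.4 CPM and the kinase ZAP70 43.2 to 79.7 CPM, against at most 0.531 and 1.07 CPM, while CD3G, CD4 and NCAM1 stayed at or under 1.6 CPM. The summed level of the 23 T and NK genes was 495 to 703 CPM in JEKO1, 331 to 438 CPM in JVM2 and 371 to 439 CPM in MAVER1, with 2 of the genes at 0 in JEKO1. The myeloid list summed to 46.0 to 121 CPM in JEKO1, 42.0 to 54.5 CPM in JVM2 and 41.3 to 76.8 CPM in MAVER1 (1 of 13 higher, CEBPE, and 1 lower, ITGAM). The erythroid list summed to 17.7 to 26.5 CPM in JEKO1, 37.6 to 54.6 CPM in JVM2 and 8.3 to 12.5 CPM in MAVER1, with 0 of 6 called. Epithelial, stromal and neural markers summed to 113 to 152 CPM in JEKO1, below 527 to 628 CPM in JVM2 and 162 to 198 CPM in MAVER1. Of the 10 tested, TUBB3, SYP and MAP2 were higher and KRT18 and COL1A1 lower. CEBPE and 1 of the 3 higher genes of the last list also entered the test only through JEKO1. Whether other cells had a part in these levels was not tested.

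**Figure D4:**
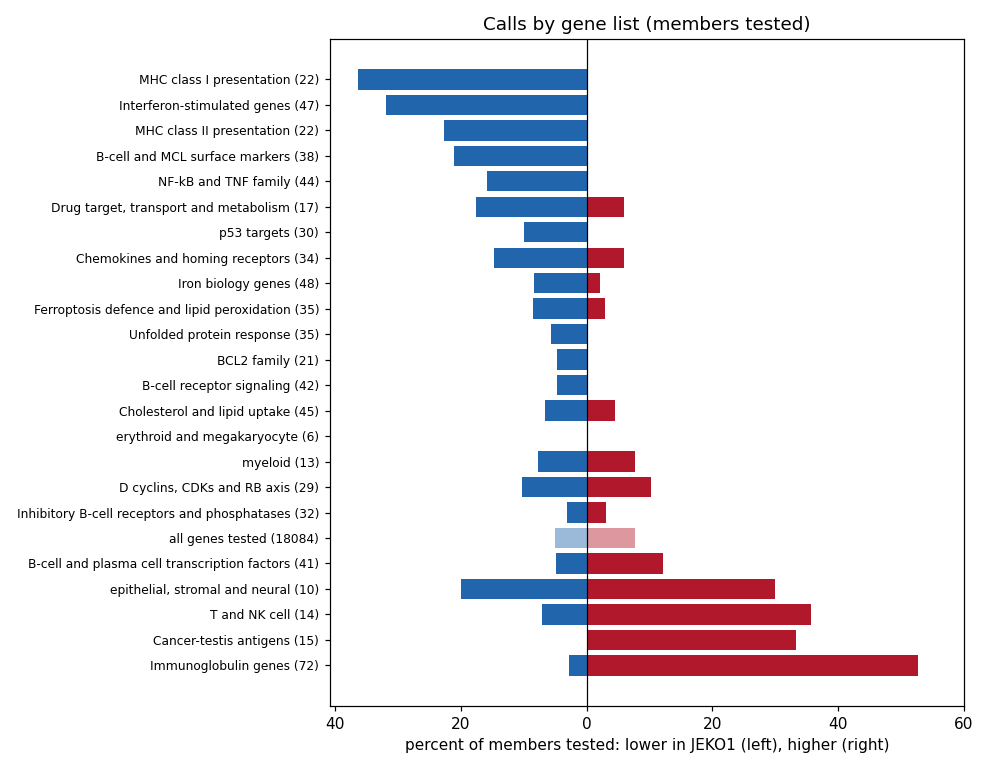
Share of the tested members of each gene list called lower (blue, left) or higher (red, right) in JEKO1 than both lines under every treatment; the number tested is in brackets. All genes tested (pale bar) had 5.00% lower and 7.68% higher; immunoglobulin genes, T and NK markers and cancer-testis antigens reached furthest right, where most of their higher genes entered the test only through JEKO1, and MHC class I and interferon-stimulated genes furthest left.

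Higher genes also lay in clusters, again chosen after their values were seen. Of 39 HOX genes in the table, 18 were tested, and 10 were higher and 2 lower. Of the 10, 6 entered the test only through JEKO1. HOXA10 and HOXA13, homeobox factors of the posterior body axis, had 4.21 to 5.23 and 4.28 to 6.01 CPM in JEKO1 and no read in the other lines, and HOXC11 had 3.64 to 5.36 CPM with no read. From HOXA5 to HOTTIP, 8 neighboring tested genes were higher. Of 28 histone genes tested, 15 were higher (53.6%, against 7.68% of all genes) and 2 lower, and 1 of the 15 entered the test only through JEKO1. Histone genes have close copies, and these libraries of polyA RNA do not measure histone RNA that lacks a polyA tail. Of 20 clustered protocadherins tested, 6 were higher, 4 of which entered only through JEKO1. Of 5 metallothioneins tested, 3 were higher, 1 of which entered only through JEKO1. Zinc finger genes of the ZNF series gave 42 higher (9.42%, against 7.68% of all genes) and 15 lower (3.36%, against 5.00%) of 446. Of the 42, 21 entered the test only through JEKO1, so the higher share is not read against all genes. Along the genome, 69 runs of at least 3 neighboring higher genes were found, the longest of 10 κ variable segments, and 30 runs of lower genes, the longest of 6.

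By chromosome, the lower genes were most frequent on chromosome 8, with 83 of 588 tested (14.1%), and chromosome 22, with 70 of 507 (13.8%), against 5.00% of all genes, and least frequent on chromosome 20 (0.93%). On chromosome 8 the share changed along its length. When its genes were cut into 10 bins in the order of the reference, the first bin held 26 higher and no lower genes of 59. Bins 6 and 7, from STAU2 to KLF10, held 42 lower genes of 117. The median log2 fold change in these was -1.19 and -1.34 against JVM2 and -1.76 and -2.06 against MAVER1, and in the first bin it was 1.58 and 1.46. RIPK2 (a kinase of NF-κB signaling), OSGIN2, NBN, DECR1 and TMEM64 formed the longest lower run there. On chromosome 22 the first bin (DUXAP8 to DGCR8) likewise held 15 higher and 1 lower of 51, and the bin from EIF3L to SGSM3, which contains the APOBEC3 genes, 15 lower and no higher. DNA copy number was not measured.

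**Figure D5:**
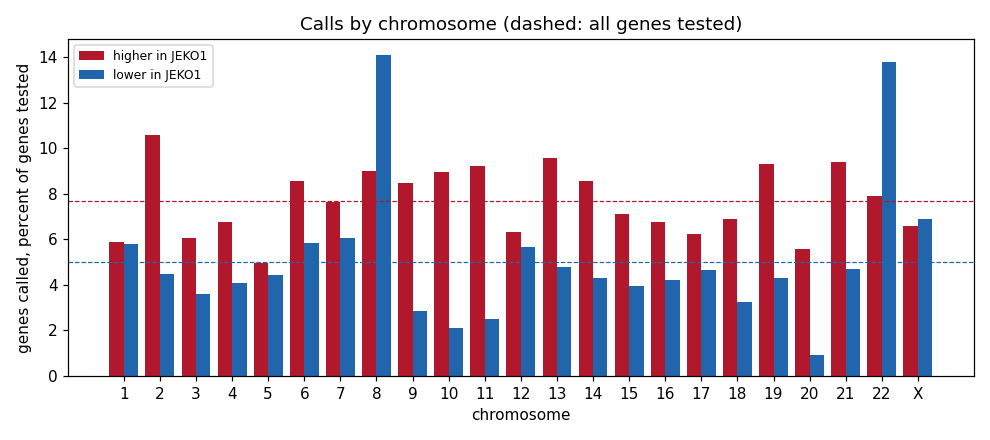
Percent of the genes tested on each chromosome that were called higher (red) or lower (blue) in JEKO1; dashed lines mark the 7.68% and 5.00% over all genes. The blue bars of chromosomes 8 and 22 reach 14.1% and 13.8%.

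The gap between JEKO1 and the other lines changed with ironomycin for some genes. The test compared the ironomycin effect in JEKO1 (50 nM) with the mean of the effects in JVM2 and MAVER1 (250 nM), and called 157 genes for which JEKO1 rose relative to the others (0.868%) and 91 for which it fell (0.503%). For ibrutinib the counts were 19 (0.105%) and 58 (0.321%). Of the 905 lower genes, 29 were called for ironomycin (3.2%, against 1.37% of all genes), and 23 of these came closer to the other lines. Of the 1389 higher genes 20 were called (1.44%, near the 1.37% of all genes), 14 of which came closer. Both sets were chosen for a gap, so the number that came closer is only a description. The 157 genes that rose with ironomycin included 16 of 47 interferon-stimulated genes. None of the 47 fell by at least 1 on the log2 scale in JEKO1 relative to the others. Their median change was 0.82 on the log2 scale against -0.01 for all genes. Without the minimum of 1, 27 rose and 2 fell, OAS1 by 0.62 and IFITM2 by 0.63 on the log2 scale (edgeR adjusted p = 0.0303 and 0.0135). IFI44L had 0.407 and 0.152 CPM in JEKO1 Ctrl and Ibru, and 6.20 and 3.01 CPM in Irono and Irono+Ibru, while in JVM2 it went from 118 and 109.7 CPM to 69.5 and 63.0 CPM, and in MAVER1 it stayed at 0.0267 to 0.271 CPM. MX1, an antiviral GTPase, had 26.0 and 10.7 CPM in JEKO1 without ironomycin and 63.2 and 23.6 CPM with it, and 374 and 416 CPM against 213 and 223 CPM in JVM2, with 10.7 to 26.6 CPM in MAVER1 (change of the gap 2.25 ± 0.10 SE, edgeR adjusted p = 9.06e-06). Both genes had more reads with ironomycin in JEKO1 and fewer in JVM2, and the JEKO1 levels were below all those of JVM2. MAVER1 was also lower with ironomycin in both genes, though for IFI44L it had at most 10 reads a library. JEKO1 lay above MAVER1 in Irono and in Irono+Ibru. The drug fits had 1 library for each dose combination in a line, and their counts moved by more than 1.5 times when any JEKO1 or JVM2 library was left out: the 157 became 58 to 392. The 16 interferon-stimulated genes became 11 to 22.

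Other genes behaved by line. MT-ND3, a mitochondrial subunit of complex I, had 348 CPM in JEKO1 Ctrl, 111 in Irono, 384 in Ibru and 25.4 in Irono+Ibru, against 342 to 407 CPM in JVM2 and 165 to 426 CPM in MAVER1. EGR1, an immediate early factor, had 9.48, 4.67, 2.36 and 1.25 CPM in JEKO1, whereas JVM2 had 13.8 CPM in Ctrl and 21.0 CPM in Irono. CCR2, a chemokine receptor, had 20.3, 7.15, 14.5 and 5.76 CPM in JEKO1, with MAVER1 moving the other way in Irono (0.615 to 9.61 CPM). PANX2 had 0.127 CPM in JEKO1 Ctrl, 1.41 in Irono and 3.76 in Irono+Ibru, and ACKR3, a chemokine scavenger, had 2.47, 6.46 and 9.31 CPM. Both genes gained on the other lines with ironomycin. With ibrutinib, TAS1R3, a taste receptor subunit called higher in JEKO1, went from 16.7 to 73.6 CPM and, with ironomycin present, from 5.62 to 28.4 CPM. P4HA2, a collagen prolyl hydroxylase, went from 1.27 to 4.06 CPM, and VLDLR, a lipoprotein receptor, from 0.610 to 2.71 CPM.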

How the data were processed

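PolyA RNA of the 12 libraries was sequenced in paired ends with a stranded kit. The deposited table holds raw read counts per Ensembl gene, which the authors made from reads aligned to GRCh37; the submitters' processing notes name STAR and DESeq2, and the counting tool and its strand setting are not given in the sources used here. Antisense and overlapping genes are uncertain for that reason. Of 63677 genes in the table, 28094 had no read. Names came from the Ensembl name table and GENCODE 29; genes with a clone name or no name were not named in the text. JEKO1, JVM2 and MAVER1 were taken from the cell line labels.

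Counts were filtered (filterByExpr by line), scaled by TMM and fitted with edgeR 4.0.16 in R 4.3.3 (glmQLFit, glmQLFTest) with line and treatment as terms; p-values were adjusted by Benjamini-Hochberg over all 18084 genes tested. The model for the drugs gave each line its own ironomycin and ibrutinib coefficients. Ratios used log2 CPM with a prior count of 2. SE values are the fold change over the root of the F statistic. No treatment was repeated within a line, so the p-values measure the spread left after the terms of the model were fitted. In the comparisons of lines this spread includes any difference between lines in their response to treatment. Floors and counts cover counting error only. The scripts were tested on simulated data. Named genes were the 12 higher and 12 lower with the largest Ctrl ratio to the nearer line (at least 5 CPM in every library of the higher side), up to 6 called members a list, a set list of 25 genes, and the 5 largest changes of the gap for each drug and direction (5 CPM in 4 libraries); others are members of the lists or were named after their values were seen. XIST and Y-linked genes were left out, and some named genes are not reported here. The genes, lists and comparisons were chosen with earlier results of these data known. Alternatives were DESeq2 1.42.0 (Wald test, size factors), library totals, other filters, no treatment term, other thresholds and leaving out libraries.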

Additional observations from a re-analysis of the deposited data

Results flagged for a closer look

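The change of the JEKO1 gap to the other lines with a drug was flagged because a test compared the drug effect between lines (edgeR, contrast of drug effects). It called 157 genes higher and 91 lower with ironomycin, and 19 higher and 58 lower with ibrutinib; at an unadjusted p under 0.05 there were 3572 and 1812. With ironomycin the largest changes on the log2 scale among genes read at 5 CPM or more in 4 libraries were 5.57 in IFI44L, 3.60 in NLRP7, 3.09 in PANX2, 2.95 in ACKR3 and 2.80 in IFIT3 toward JEKO1, and -3.68 in EBI3, -2.41 in CCR2, -2.40 in EGR1, -2.38 in MT-ND3 and -2.36 in TENT5A away from it. With ibrutinib they included 1.76 in TAS1R3, 1.71 in CCR2, 1.63 in P4HA2, 1.51 in MYBPC2 and 1.39 in VLDLR, and -6.98 in EBI3, -5.95 in ADGRE1, -4.63 in CCL22 and -3.39 in INAVA. EBI3, ADGRE1 and INAVA were under 1 CPM in every JEKO1 library, so that their sizes depend on a handful of reads, and NLRP7 was under 1 CPM in JEKO1 and JVM2. CCL22 had 132 reads in JEKO1 Ctrl and 4 to 7 in the treated JEKO1 libraries, so that its size rests on the Ctrl library. IFI44L had 1 to 10 reads in the MAVER1 libraries. CCR2 and MYBPC2 changed mostly through MAVER1, where CCR2 went from 9.61 CPM in Irono to 0.863 CPM in Irono+Ibru. Doses differed between lines, and their part in these differences was not tested. Among 34 sets of 4 JEKO1 values examined (named genes with at least 5 CPM in each library, read totals and scaling factors), none had a library apart from the rest by Dixon's ratio at the 95% level.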

How the results depend on the processing

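The counts of genes higher and lower than both lines under every treatment stayed within 1.5 times (1389 and 905) under DESeq2, both other scalings, no filter, no treatment term, a prior count of 0.5 and leave-outs. They moved to 747 and 292 with a minimum of 2 on the log2 scale, the lower count to 1423 where only the direction had to hold, and the higher count to 826 with a mean of at least 1 CPM, which tests fewer genes. That filter also gave 2310 higher genes against the mean, 2800 against JVM2, 2146 against MAVER1 and 1107 in the Ctrl libraries. With a minimum of 2, lower members numbered 7 (interferon-stimulated), 0 (MHC class I), 2 (class II), 2 (NF-κB and TNF) and 4 (surface markers); with only the direction, 23 (interferon-stimulated) and 14 (NF-κB and TNF). Without the 6 ironomycin libraries 26 interferon-stimulated genes were lower, and with library totals 5 MHC class I genes. Where a library was left out, the rule dropped its treatment for all lines and was looser for every gene. Library totals moved the median of all genes to 0.24 and 0.20 on the log2 scale against JVM2 and MAVER1, and 70.4% in place of 60.5% of the calls against both lines were then higher. Leaving out single libraries or treatments gave 6 to 13 NF-κB and TNF genes. In the drug fits it gave 58 to 392 (higher) and 26 to 128 (lower) genes with ironomycin and 4 to 52 and 13 to 105 with ibrutinib; no filter gave 101 and 47, and 11 and 30. The cause was not tested. The fold change of BTK against MAVER1 reversed to 0.13 with library totals, and ranged from -0.12 to 0.000325 over leave-outs, reversing without JEKO1 replicate 2 (Irono). Of 6532 alternative values of named genes, 6429 kept direction and side, 97 lost the call, 4 gained it and these 2 reversed. The labels give no replicate numbers. The comparisons of lines were paired by treatment through a model term; without it, 1386 genes were higher and 904 lower.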
